A study of Mus musculus with 40 samples.

Results

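The interferon response genes described here are 35 genes that are typically switched on by interferon, chosen by name as a set of transcription factors, viral RNA and DNA sensors, and antiviral effectors. Their identifiers were found among the 53465 genes of a count table from mouse bladder urothelial organoids, and 31 of the 35 passed the filter on low counts that left 16921 genes for testing. The study compared cells whose labels give a loss of both Kmt2c and Kmt2d (dKO), genes for histone H3K4 methyltransferases that act at enhancers, with wild type (WT) cells. Libraries of polyadenylated RNA, 8 in number, formed 4 groups with 2 each. The groups were labelled dKO cells given MI-503, labelled dKO cells given DMSO, WT cells given MI-503 and WT cells given DMSO, called dKO MI-503, dKO DMSO, WT MI-503 and WT DMSO below. MI-503, a small molecule that blocks the binding of menin to the methyltransferase KMT2A, was given at 1 µM for 4 days, and DMSO, its solvent, for the same time. All 4 groups were grown in an organoid medium with EGF, Noggin, R-spondin, the ROCK inhibitor Y-27632 and the TGF-beta receptor inhibitor A83-01, and no interferon was named among its additions. The labels give no strain, age or sex, and they do not say whether the 2 libraries of a group came from separate cultures, how the knockouts were made, whether each line is 1 clone, or which exons were deleted, so p-values measure only the spread between these libraries.

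Interferons are secreted proteins that warn cells of infection. Type I and type III interferons act through receptors that activate the kinases JAK1 and TYK2, which phosphorylate STAT proteins; with IRF9, STAT2 is part of a complex named ISGF3 that binds interferon-stimulated response elements in promoters. Interferon gamma acts through its own receptor and through gamma-activated sites, and switches on IRF1 and guanylate-binding proteins. In epithelia such as the urothelium, many of these genes keep a low level without infection, and several of the proteins they encode, such as IRF7, STAT2 and IRF9, act back on the same genes, while USP18 damps the response.

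Promoter stretches that hold matches to the core patterns of such elements are shown for 8 members, and the RNA values of the same genes follow. They come from the RefSeq promoter table of build GRCm38.p6 and are written 5′ to 3′ on the gene's strand, with up to 25 bases on either side of the outermost match and none beyond the start site. Capitals mark 2 patterns, searched on both strands: a pair of GAAA blocks with any 2 bases between them, the core of the interferon-stimulated response element, and TTCNNNGAA, the core of the gamma-activated site. On the other strand a GAAA pair reads as a pair of TTTC blocks.
Isg15 (chr4:156200850-156200921, minus strand): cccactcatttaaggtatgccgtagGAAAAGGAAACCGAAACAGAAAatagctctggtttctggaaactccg
Ifit1 (chr19:34640760-34640838, plus strand): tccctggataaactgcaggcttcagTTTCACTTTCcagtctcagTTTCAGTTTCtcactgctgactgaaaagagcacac
Oas1a (chr5:120907526-120907648, minus strand): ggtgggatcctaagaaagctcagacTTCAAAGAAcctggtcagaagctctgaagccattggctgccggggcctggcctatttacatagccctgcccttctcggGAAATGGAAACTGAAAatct
Oas3 (chr5:120777700-120777759, minus strand): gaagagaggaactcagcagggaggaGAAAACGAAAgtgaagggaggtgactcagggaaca
Stat2 (chr10:128270251-128270310, plus strand): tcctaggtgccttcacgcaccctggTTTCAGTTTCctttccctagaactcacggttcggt
Gbp2 (chr3:142620579-142620638, plus strand): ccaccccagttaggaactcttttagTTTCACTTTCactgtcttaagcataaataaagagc
Bst2 (chr8:71537562-71537633, minus strand): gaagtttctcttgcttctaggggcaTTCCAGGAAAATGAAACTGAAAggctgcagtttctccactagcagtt
Irf1 (chr11:53769899-53769957, plus strand): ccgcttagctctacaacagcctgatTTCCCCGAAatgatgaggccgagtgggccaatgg
Isg15, Oas1a and Bst2 carry overlapping GAAA pairs, Ifit1 has 2 such pairs on the opposite strand, Stat2 and Gbp2 have 1 each on that strand, and Oas3 has 1 on its own. The capitals in Irf1 are a gamma-activated site core alone; Oas1a and Bst2 hold both kinds, and in Bst2 they overlap. Of the 35 members, 25 were matched by symbol to a promoter of 300 bases, which runs from 250 before to 50 after the annotated start. The GAAA pair was found in 13 of these 25 (52%), against 1079 of 27025 genes in the table (3.99%) and 3.44% of its 32851 promoters. TTCNNNGAA was found in 7 of 25 (28%), against 9.55% of all genes and 8.3% of all promoters. The members without either pattern in the window included Irf7, Irf9, Oasl1, Oasl2, Ifi44, Xaf1, Trim25, Dtx3l and Cmpk2. A match is a description of the letters and no measure of binding, and these windows were not set against the RNA by a test.

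**Figure D1:**
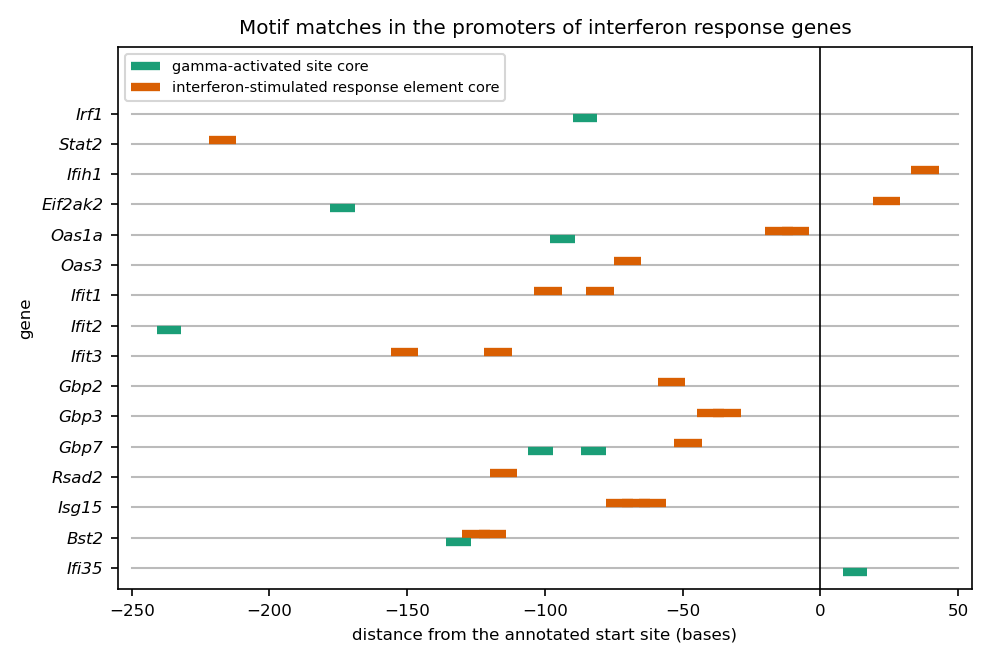
Position of each match in the promoters of the 16 members that hold at least 1, in bases from the annotated start site (vertical line at 0). Orange bars are GAAA pairs and green bars TTCNNNGAA; most matches lie before the start, those of Ifih1 and Ifi35 and the orange one of Eif2ak2 after it.

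Library totals ran from 58113705 to 68571176 counts. An approximate upper limit of 3 counts for an observed count of 0 corresponded to 0.0438 to 0.0516 CPM (counts scaled to a common library total). This limit covers counting error only. Levels below are CPM after scaling by TMM factors; they are not per length and cannot be compared between genes. Both WT DMSO libraries stood apart: 14 chaperone genes of the endoplasmic reticulum held 0.367% to 0.488% of the scaled counts of the other 6 libraries and 4.01% to 4.33% of theirs. The part of this in the comparisons that use WT DMSO was not tested. The comparisons of dKO MI-503 with dKO DMSO and of dKO MI-503 with WT MI-503 do not use the levels of these libraries. All 8 libraries entered the scaling and the shared estimate of the spread behind every adjusted p. Kmt2c averaged 28.2 ± 2.24 CPM in dKO MI-503, 53.8 ± 2.08 CPM in dKO DMSO, 60.96 ± 0.98 CPM in WT MI-503 and 111 ± 0.476 CPM in WT DMSO (SD, n = 2 each), and was lower in the labelled dKO libraries (dKO DMSO against WT DMSO, log2 fold change -1.04, SE 0.059, edgeR adjusted p = 2.6e-09). Kmt2d was higher in them, not lower. Kmt2d averaged 95.3 ± 12.4 CPM in dKO MI-503, 122 ± 15.7 CPM in dKO DMSO, 70.8 ± 7.15 CPM in WT MI-503 and 90.96 ± 6.26 CPM in WT DMSO (dKO DMSO against WT DMSO, log2 fold change 0.43, SE 0.10, edgeR adjusted p = 0.00166). Counts cover whole genes and do not show the loss of single exons, so dKO in this text stands for what the labels say. All 18 urothelial markers had counts, and the basal keratin gene Krt5 averaged 10390 CPM in dKO MI-503, 9579 CPM in dKO DMSO, 7470 CPM in WT MI-503 and 3974 CPM in WT DMSO. Markers of superficial cells differed among themselves. The uroplakin gene Upk2 averaged 0.139 CPM or less in each group, whereas Upk1b averaged 100.5 CPM in dKO MI-503, 140.5 CPM in dKO DMSO, 102 CPM in WT MI-503 and 138 CPM in WT DMSO. The keratin gene Krt20 averaged 6.66 CPM in dKO MI-503, 10.8 CPM in dKO DMSO, 0.508 CPM in WT MI-503 and 0.320 CPM in WT DMSO, and was higher in dKO than in WT cells in DMSO (log2 5.07, edgeR adjusted p = 1.03e-11). Upk3a had the same order in DMSO, with 2.09 CPM in dKO and 0.229 CPM in WT cells. The reverse order was seen for Upk3b (0.0671 CPM in dKO DMSO, 1.64 CPM in WT DMSO) and Upk1a (0.430 and 1.37 CPM). Of 14 leukocyte markers, Adgre1, Ms4a1, Nkg7, Siglech, Tyrobp and Lyz2 had 0 counts in the 8 libraries, and the 13 markers other than Cd68 summed to 0.0297 to 0.0486 CPM in dKO MI-503, 0.014 to 0.0455 CPM in dKO DMSO, 0.167 to 0.351 CPM in WT MI-503 and 0.0496 to 0.0651 CPM in WT DMSO. Cd68, a lysosomal protein gene, had 65.5 CPM in dKO MI-503, 13.1 CPM in dKO DMSO, 163 CPM in WT MI-503 and 17.5 CPM in WT DMSO. Of 7 fibroblast markers, Col1a2, Dcn and Lum had 0 counts, and the 7 summed to 7.78 to 8.49 CPM in dKO MI-503, 3.56 to 4.16 CPM in dKO DMSO, 1.33 to 1.57 CPM in WT MI-503 and 1.37 to 1.57 CPM in WT DMSO. Pdgfra made up most of each sum, with means of 7.84 CPM in dKO MI-503, 3.70 CPM in dKO DMSO, 1.35 CPM in WT MI-503 and 1.08 CPM in WT DMSO, whereas Pdgfrb averaged 0.0222 CPM in dKO DMSO and 0.361 CPM in WT DMSO and was called lower in dKO cells in that comparison. Of 6 endothelial markers Emcn had 0 counts, and the 6 summed to 0.0981 to 0.468 CPM over the 8 libraries. The part of these in the values below was not tested, and in bulk RNA fewer cells of a type and less RNA per cell cannot be told apart.

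The interferon response genes did not move as 1 block. With MI-503 more of them fell than rose in dKO cells, and more rose than fell in WT cells. In DMSO the dKO cells had more RNA of Irf9, Isg15, Ifit1, Ifi44 and Xaf1 than WT cells, and less of Irf1 and Usp18. Of the 31 tested members, 8 rose, 12 fell and 11 did not pass with MI-503 in dKO cells, where 29.1% of all genes tested were called higher and 26.5% lower; their median log2 fold change was -0.49, against 0.031 for all genes. That balance rests on members with few counts: over the 17 that a stricter filter of 1 CPM kept, 8 rose, 7 fell and the median was 0.25. With MI-503 in WT cells, 18 rose, 1 fell and 12 did not pass, beside 35.2% of all genes higher and 33.7% lower, and the median was 0.46, against 0.031 for all genes. The MI-503 effect was lower in dKO than in WT cells for 18 members, higher for 1, and not called for 12, whereas 22.0% of all genes were called lower and 24.8% higher; the median difference was -0.97, against 0.018 for all genes.

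Between the genotypes in DMSO, 16 members were higher in dKO cells, 5 lower and 10 not called, beside 29.6% and 35.8% of all genes called higher and lower, and the median was 0.60, against -0.052 for all genes. That median rests on members with few counts. Over the members with a mean of at least 1 CPM, 7 were higher and 4 lower, and the median was 0.022. Of all genes at that level, 34.7% were higher and 42.5% lower. For the members under 1 CPM the median was 1.86. Between the genotypes in MI-503, 6 were higher, 13 lower and 12 not called, beside 26.6% higher and 28.5% lower among all genes, and the median was -0.15, against 0.007 for all genes. A call means a Benjamini-Hochberg adjusted p under 0.05 over all genes tested in edgeR's quasi-likelihood test. Called in either direction were 64.5% of members with MI-503 in dKO cells (55.6% of all genes), 61.3% with MI-503 in WT cells (69.0%), 61.3% for the difference of these effects (46.8%), 67.7% between the genotypes in DMSO (65.4%) and 61.3% between them in MI-503 (55.1%). A member that passed the filter only through 1 group had to differ between groups, so these are counts over the tested members and not over the 35.

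**Figure D2:**
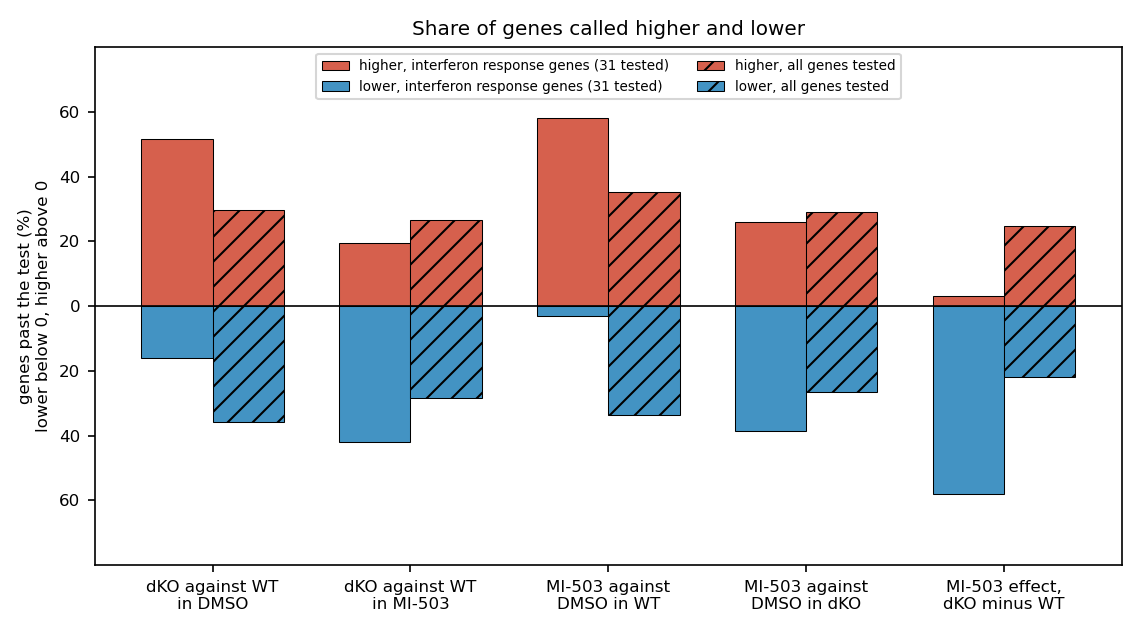
Percent of genes called higher (red, above 0) and lower (blue, below 0) in each of 5 comparisons, for the 31 tested interferon response genes (plain bars) and all 16921 genes tested (hatched bars). With MI-503 in WT, 58.1% of members were called higher against 35.2% of all genes; for the difference of the MI-503 effects, 58.1% were called lower against 22.0%.

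The MI-503 comparisons in dKO and in WT cells share no library in the levels compared, so their calls can be set side by side. They do share the scaling and the estimate of the spread, which come from all 8 libraries. Of the 31 members, 8 were called higher in both genotypes (25.8%, and 21.1% of all genes). Another 4, Irf7, Irf9, Oas1a and Usp18, were called lower in dKO and higher in WT cells (12.9%, and 2.16% of all genes; 5.06% of all genes were called in opposite directions either way). Among these, the fall of Oas1a in dKO cells and the rise of Irf9 in WT cells lost their calls when single libraries were left out. A further 8 were lower in dKO cells with no call in WT (25.8%, and 3.97% of all genes), 6 had no call in dKO cells and were higher in WT (19.4%, and 12% of all genes), 1 was lower in WT alone (3.23%, and 10.5%), and 4 passed in neither (12.9%, and 22%). A call in 1 genotype alone is no test of a difference between the effects. Of those 8, Ifih1 (log2 -0.22, edgeR adjusted p = 0.265), Oasl2 (-1.885, adjusted p = 0.0555) and Ifit1 (-0.79, adjusted p = 0.491) had no called difference of effects. Nor had Oasl1 (0.59, adjusted p = 0.282), the member lower in WT alone. By group means, dKO MI-503 had the highest level for 2 of the 31 members (6.45%, and 22.6% of all genes), dKO DMSO for 11 (35.5%, and 19.0%), WT MI-503 for 15 (48.4%, and 26.6%) and WT DMSO for 3 (9.68%, and 31.7%). Both libraries of dKO DMSO lay above the other 6 for 9 members, Irf9, Oas1a, Oasl2, Ifit1, Rsad2, Isg15, Parp14, Ifi44 and Xaf1, where 11.4% of all genes did so. Both of WT MI-503 did so for 9 others (19.8% of all genes), Irf1, Oas3, Ifit2, Mx1, Usp18, Trim25, Parp9, Bst2 and Ifi35. Both of dKO MI-503 did so for Stat2 alone (13.8% of all genes), and both of WT DMSO for Ifih1 and Oasl1 (25.1%).

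The comparisons of the genotypes in MI-503 and in DMSO share no library in the levels compared either. Of the 31 members, 6 were higher in dKO cells in both treatments (19.4%, and 16.3% of all genes) and 4 lower in both (12.9%, and 19.3%). Irf7, Oas2 and Mx2 were lower in dKO cells in MI-503 and higher in DMSO (9.68%, and 3.26% of all genes). Oas2 and Mx2 had few counts. The calls of Oas2 in both treatments and of Mx2 in MI-503 were lost when single libraries were left out. Another 6 were lower in MI-503 with no call in DMSO (19.4%, and 5.93%), and 7 were higher in DMSO with no call in MI-503 (22.6%, and 10.1%). A call in 1 treatment alone is likewise no test of a difference. The difference of effects was not called for Bst2 (log2 -0.33, edgeR adjusted p = 0.147), called lower in MI-503 alone. It was also not called for Eif2ak2 (-0.18, adjusted p = 0.118) and Oasl2 (-1.885, adjusted p = 0.0555), called higher in DMSO alone. Stat2 was lower in DMSO alone (3.23%, and 11.9%), and 4 members passed in neither treatment (12.9%, and 22.9%). The comparisons of the genotypes in DMSO and of MI-503 in dKO cells both use dKO DMSO, and those of the genotypes in DMSO and of MI-503 in WT cells both use WT DMSO, so their values for a member are not independent.

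**Figure D3:**
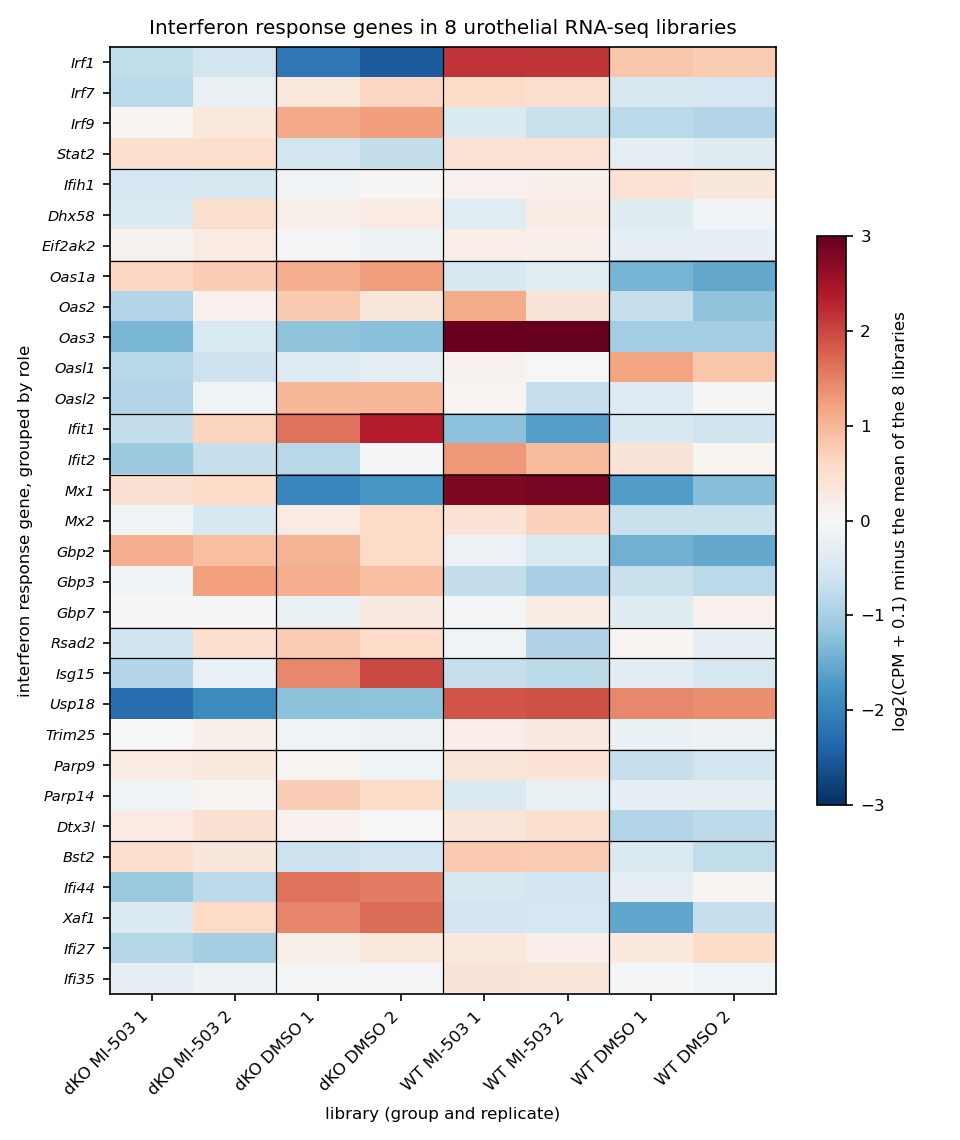
Level of each tested member in each of the 8 libraries, as log2(CPM + 0.1) minus the gene's mean over the libraries (red higher, blue lower, colours end at 3 on either side), with genes grouped by role. The dKO DMSO columns are red for Irf9, Ifit1, Isg15, Ifi44 and Xaf1, and the WT MI-503 columns for Irf1, Oas3, Mx1 and Usp18. For Irf1 and Usp18 the WT DMSO columns are red as well, though less so.

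The 2 libraries of dKO MI-503 differed for more of these genes than those of the other groups. Replicate 2 was above replicate 1 for 26 of the 31 members, with a median ratio of 1.16, against 1 over all genes tested. The ratio passed 1.5 for 11 members, Irf7, Dhx58, Oas2, Oas3, Oasl2, Ifit1, Ifit2, Gbp3, Rsad2, Isg15 and Xaf1, where 5.03% of all genes did so. In the other groups replicate 2 was higher for 18 (dKO DMSO), 12 (WT MI-503) and 13 (WT DMSO) of the 31 members. Without dKO MI-503 replicate 2, 5 members rose and 14 fell with MI-503 in dKO cells, in place of 8 and 12, and between the genotypes in MI-503 3 were higher in place of 6.

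Among the transcription factors, IRF1 is the short-lived activator induced by interferon gamma and by type I interferon, IRF7 amplifies type I interferon production, and IRF9 and STAT2 are the DNA-binding and activating parts of ISGF3. Irf1 (chromosome 11, 53770014 to 53778374) was low in dKO cells in both treatments and rose with MI-503 in both genotypes. Irf1 had 6.44 and 7.39 CPM in dKO MI-503, 2.4 and 1.85 CPM in dKO DMSO, 49.2 and 48.7 CPM in WT MI-503 and 19.4 and 18.5 CPM in WT DMSO. The 4 groups did not overlap. In DMSO the level in dKO cells was 8.96-fold lower than in WT cells (log2 fold change -3.16, SE 0.11, edgeR adjusted p = 1.78e-11), and in MI-503 it was 7.08-fold lower (log2 -2.82, SE 0.094, adjusted p = 1.47e-11). MI-503 raised it in dKO cells (log2 fold change 1.71, SE 0.12, edgeR adjusted p = 3.72e-08) and in WT cells (log2 1.37, SE 0.085, adjusted p = 4.63e-09), and the difference between these was not called (log2 0.34, SE 0.15, adjusted p = 0.0754).

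Irf7 (chromosome 7, 141263183 to 141266499) went in opposite directions with MI-503 in the 2 genotypes. Irf7 had 1.19 and 1.85 CPM in dKO MI-503, 2.71 and 3.39 CPM in dKO DMSO, 3.28 and 3.13 CPM in WT MI-503 and 1.53 and 1.51 CPM in WT DMSO. The dKO DMSO and WT MI-503 libraries were the high ones, and their ranges overlapped. With MI-503 Irf7 fell in dKO cells (log2 fold change -1.02, SE 0.19, edgeR adjusted p = 0.000481) and rose in WT cells (log2 1.08, SE 0.20, adjusted p = 0.000217), and the difference was called (log2 -2.10, SE 0.28, adjusted p = 2.92e-05). Between the genotypes it was 2.01-fold higher in dKO cells in DMSO and 2.12-fold lower in MI-503, both called.

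Irf9 (chromosome 14, 55603985 to 55610030) was highest in dKO cells given DMSO. Irf9 had 10.3 and 12.1 CPM in dKO MI-503, 21.5 and 23.2 CPM in dKO DMSO, 7.12 and 6.03 CPM in WT MI-503 and 5.44 and 5.19 CPM in WT DMSO. All 4 groups were separate, with both dKO groups above both WT groups. It was 4.2-fold higher in dKO than in WT cells in DMSO (log2 fold change 2.07, SE 0.11, edgeR adjusted p = 8.64e-10) and 1.7-fold higher in MI-503 (log2 0.76, SE 0.11, adjusted p = 3.28e-05). MI-503 lowered it in dKO cells (log2 -0.999, SE 0.10, adjusted p = 1.06e-06), and the 2 effects differed (log2 -1.31, SE 0.15, adjusted p = 8.29e-06). The rise in WT cells was small (log2 0.31, SE 0.11, adjusted p = 0.0256) and lost its call without WT MI-503 replicate 1 (0.18, adjusted p = 0.257), WT DMSO replicate 1 (0.35, adjusted p = 0.0518) or WT DMSO replicate 2 (0.27, adjusted p = 0.116).

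Stat2 (chromosome 10, 128270498 to 128292853), which overlaps 753 bases of Apof, rose with MI-503 in both genotypes and was the 1 member whose rise was called larger in dKO cells. Stat2 had 27.9 and 28.4 CPM in dKO MI-503, 13.4 and 11.8 CPM in dKO DMSO, 26.6 and 26.5 CPM in WT MI-503 and 15.9 and 15.1 CPM in WT DMSO. The MI-503 libraries of both genotypes lay above all DMSO libraries. It rose with MI-503 in dKO cells (log2 fold change 1.16, SE 0.074, edgeR adjusted p = 1.64e-08) and in WT cells (log2 0.77, SE 0.073, adjusted p = 3.69e-07), and the difference was called (log2 0.39, SE 0.10, adjusted p = 0.00756). Scaled by library size only, the difference was not called (0.23, adjusted p = 0.0869), nor without the filter on low counts (0.29, adjusted p = 0.0559), and the lower level in dKO cells in DMSO (log2 -0.30, SE 0.076, adjusted p = 0.00313) also lost its call by library size only (-0.073, adjusted p = 0.407).

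**Figure D4:**
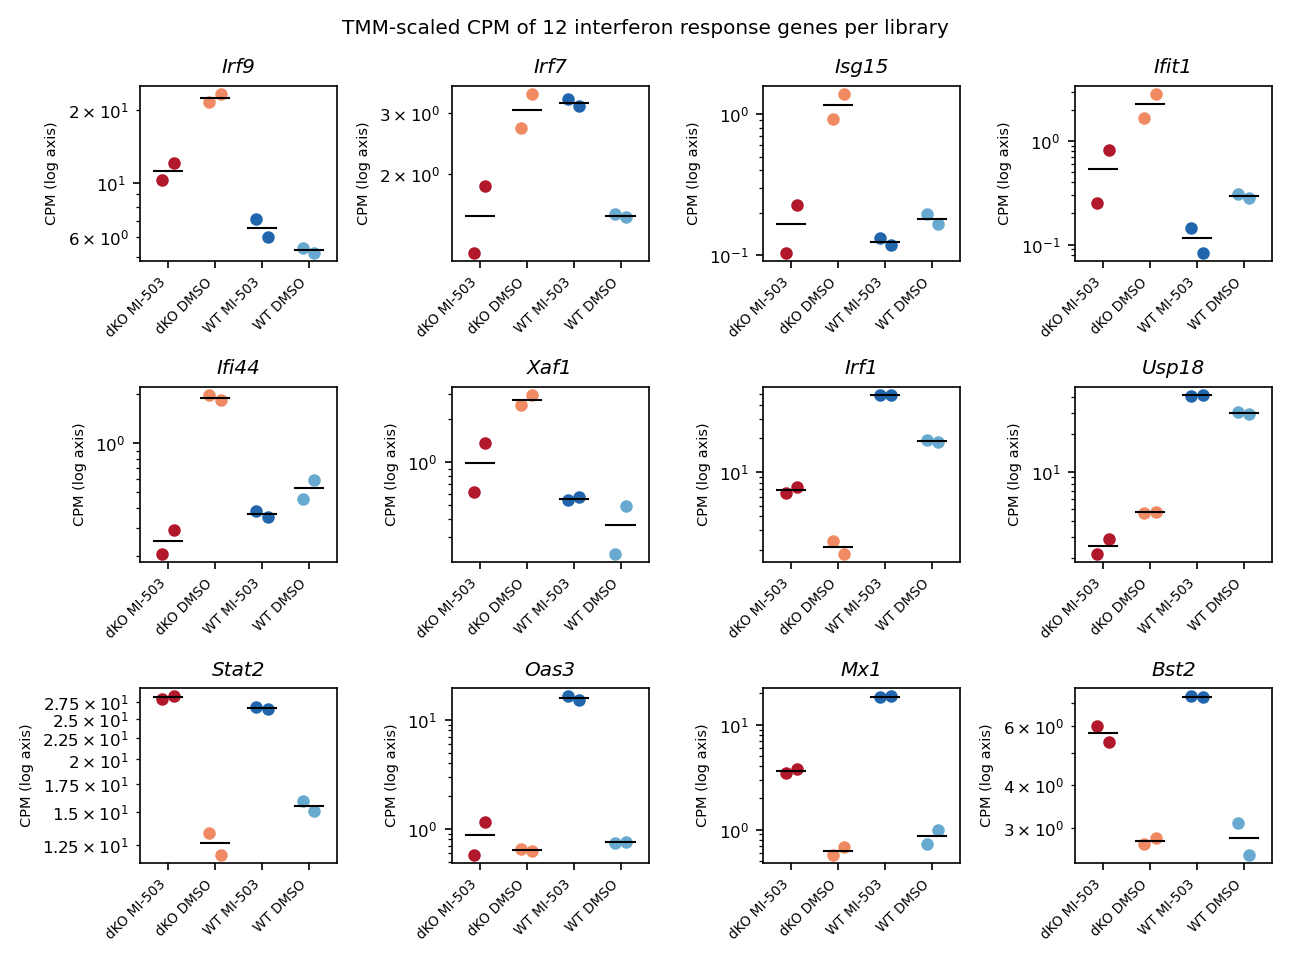
TMM-scaled CPM (log axis) of 12 interferon response genes in each library, for dKO MI-503, dKO DMSO, WT MI-503 and WT DMSO from left to right. Points are libraries and short lines the group means; Irf9, Isg15, Ifit1, Ifi44 and Xaf1 are highest in dKO DMSO, and Irf1, Usp18, Oas3, Mx1 and Bst2 in WT MI-503.

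Among the sensors, IFIH1 (MDA5) and DHX58 (LGP2) detect double-stranded RNA, EIF2AK2 (PKR) is a kinase that stops translation when it binds such RNA, and ZBP1 binds Z-form nucleic acid. Ifih1 was lower in dKO than in WT cells, and lower with MI-503 in both genotypes, where only the fall in dKO cells was called. Ifih1 had 3.24 and 3.28 CPM in dKO MI-503, 4.28 and 4.77 CPM in dKO DMSO, 5.03 and 5.16 CPM in WT MI-503 and 6.24 and 5.89 CPM in WT DMSO. All WT libraries lay above all dKO libraries, and within a genotype the DMSO libraries lay above the MI-503 ones. It was lower in dKO cells in MI-503 (log2 fold change -0.65, SE 0.11, edgeR adjusted p = 0.000251) and in DMSO (log2 -0.42, SE 0.11, adjusted p = 0.00326), and it fell with MI-503 in dKO cells (log2 -0.48, SE 0.11, adjusted p = 0.00267). With MI-503 in WT cells the change was not called (log2 -0.25, SE 0.11, adjusted p = 0.0506), nor was the difference of effects (log2 -0.22, SE 0.155, adjusted p = 0.265). Scaled by library size only, the difference in DMSO was not called (-0.19, adjusted p = 0.131). Its region overlaps a long noncoding RNA gene over 3543 bases.

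Eif2ak2 had 60.8 and 67.1 CPM in dKO MI-503, 55.4 and 50.9 CPM in dKO DMSO, 64.8 and 63.2 CPM in WT MI-503 and 46.3 and 47.7 CPM in WT DMSO. The MI-503 libraries of both genotypes lay above all DMSO libraries. Eif2ak2 rose with MI-503 in dKO cells (log2 fold change 0.27, SE 0.062, edgeR adjusted p = 0.0023) and in WT cells (log2 0.45, SE 0.063, adjusted p = 2.14e-05). Its difference between the genotypes in DMSO was called (log2 0.18, SE 0.063, adjusted p = 0.0243), but not without dKO DMSO replicate 1 (0.12, adjusted p = 0.18), WT DMSO replicate 1 (0.16, adjusted p = 0.112) or WT DMSO replicate 2 (0.20, adjusted p = 0.0542). Dhx58 had 28 to 58 counts in the 8 libraries and was called in none of the 5 comparisons. Zbp1, with 0 to 5 counts, was not tested.

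The 2′-5′ oligoadenylate synthetases make the second messenger that activates the antiviral nuclease RNase L. All 5 members lie on chromosome 5, where Oas1a, Oas2 and Oas3 are neighbours, yet they did not share a pattern. Oas3 (chromosome 5, 120753098 to 120777684) stood high in 1 group. Oas3 had 0.579 and 1.17 CPM in dKO MI-503, 0.652 and 0.631 CPM in dKO DMSO, 16.5 and 15.2 CPM in WT MI-503 and 0.749 and 0.761 CPM in WT DMSO. Both WT MI-503 libraries were far above the other 6. With MI-503 in dKO cells no change was called (log2 fold change 0.43, SE 0.27, edgeR adjusted p = 0.207), a value of either sign as libraries were left out (-0.15 without dKO MI-503 replicate 2 and, called, 0.86 without dKO MI-503 replicate 1). With MI-503 in WT cells it was 21-fold higher (log2 4.39, SE 0.19, adjusted p = 1.33e-10). The difference of these effects was called (log2 -3.96, SE 0.36, adjusted p = 1.06e-06), and in MI-503 the level was 18.3-fold lower in dKO than in WT cells.

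Oas1a (chromosome 5, 120896256 to 120907544) was high in both dKO groups. Oas1a had 1.23 and 1.36 CPM in dKO MI-503, 1.73 and 1.95 CPM in dKO DMSO, 0.512 and 0.585 CPM in WT MI-503 and 0.228 and 0.198 CPM in WT DMSO. Every dKO library lay above every WT library. It was 8.56-fold higher in dKO than in WT cells in DMSO (log2 fold change 3.10, SE 0.26, edgeR adjusted p = 1.33e-07) and 2.36-fold higher in MI-503 (log2 1.24, SE 0.23, adjusted p = 0.000352). With MI-503 it was called lower in dKO cells (log2 -0.51, SE 0.19, adjusted p = 0.036) and rose in WT cells (log2 1.35, SE 0.31, adjusted p = 0.0015). The call in dKO cells was lost without any 1 of the 4 dKO libraries (adjusted p = 0.177 without dKO MI-503 replicate 1, 0.0714 without dKO MI-503 replicate 2, 0.0532 without dKO DMSO replicate 1 and 0.183 without dKO DMSO replicate 2). With the replicate block it was also not called (adjusted p = 0.0518). Oas1g, a near-identical neighbour of Oas1a, had 12 counts in dKO MI-503, 43 in dKO DMSO and 0 in both WT groups, so the split of reads between the pair is uncertain.

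Oas2, the third gene of the cluster, had few counts, with 3 and 12 in dKO MI-503, 24 and 17 in dKO DMSO, 33 and 15 in WT MI-503 and 4 and 1 in WT DMSO. With MI-503 the change in dKO cells was not called (log2 fold change -1.34, SE 0.62, edgeR adjusted p = 0.0824), and Oas2 rose in WT cells (log2 3.12, SE 0.75, adjusted p = 0.0021), where WT DMSO held 5 counts in all; the difference was called (log2 -4.46, SE 0.98, adjusted p = 0.00199). Its higher level in dKO cells in DMSO (log2 fold change 2.81) was not called without WT DMSO replicate 2 (2.17, adjusted p = 0.0598). Its lower level in MI-503 (log2 -1.65) was not called without dKO MI-503 replicate 1 (-0.92, adjusted p = 0.269) or WT MI-503 replicate 1 (-1.09, adjusted p = 0.291).

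Oasl1 and Oasl2 are synthetase-like relatives, and mouse OASL1 is known to block the translation of Irf7 mRNA. Oasl1 was highest in WT DMSO, with counts of 18 and 20 in dKO MI-503, 26 and 31 in dKO DMSO, 41 and 33 in WT MI-503 and 85 and 64 in WT DMSO. It fell with MI-503 in WT cells (log2 fold change -1.08, SE 0.26, edgeR adjusted p = 0.0019) and was lower in dKO cells in DMSO (log2 -1.55, SE 0.27, adjusted p = 0.000157). In MI-503 it was also lower in dKO cells (log2 -0.96, SE 0.31, adjusted p = 0.0187), but not called without dKO MI-503 replicate 1 (-0.83, adjusted p = 0.119), WT MI-503 replicate 1 (-0.90, adjusted p = 0.0904) or WT MI-503 replicate 2 (-1.01, adjusted p = 0.0502). Oasl2 was highest in dKO DMSO, with counts of 5 and 12 in dKO MI-503, 36 and 39 in dKO DMSO, 16 and 6 in WT MI-503 and 9 and 14 in WT DMSO. It fell with MI-503 in dKO cells (log2 -2.03, SE 0.49, adjusted p = 0.00281), and its higher level in dKO cells in DMSO (log2 1.52, SE 0.46, adjusted p = 0.0102) was not called without WT DMSO replicate 1 (1.23, adjusted p = 0.0877). No change was called with MI-503 in WT cells (log2 -0.15, SE 0.56, adjusted p = 0.832), nor was the difference of effects (log2 -1.885, SE 0.75, adjusted p = 0.0555).

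IFIT proteins bind foreign RNA and block its translation. Ifit1 (chromosome 19, 34640889 to 34650009), whose region lies wholly within the annotated Ifit1bl1 gene, was highest in dKO DMSO. Ifit1 had 0.252 and 0.811 CPM in dKO MI-503, 1.68 and 2.85 CPM in dKO DMSO, 0.146 and 0.0836 CPM in WT MI-503 and 0.309 and 0.281 CPM in WT DMSO. Both dKO DMSO libraries lay above the other 6, though replicate 2 was well above replicate 1, as in dKO MI-503. It was 7.65-fold higher in dKO than in WT cells in DMSO (log2 fold change 2.94, SE 0.43, edgeR adjusted p = 3.48e-05) and fell with MI-503 in dKO cells (log2 -2.11, SE 0.38, adjusted p = 0.000334). With MI-503 in WT cells, with 5 to 19 counts a library, no change was called (log2 -1.32, SE 0.70, adjusted p = 0.107), nor did the 2 effects differ by the test (log2 -0.79, SE 0.86, adjusted p = 0.491). In MI-503 it was higher in dKO cells (log2 2.15, SE 0.62, adjusted p = 0.0095), a call lost without dKO MI-503 replicate 2 (1.10, adjusted p = 0.171) or WT MI-503 replicate 2 (1.83, adjusted p = 0.0528).

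Ifit2 was instead highest in WT MI-503, with counts of 8 and 12 in dKO MI-503, 11 and 26 in dKO DMSO, 74 and 49 in WT MI-503 and 32 and 24 in WT DMSO. In MI-503 it was lower in dKO than in WT cells (log2 fold change -2.61, SE 0.41, edgeR adjusted p = 0.000107). Its rise with MI-503 in WT cells (log2 1.05, SE 0.35, adjusted p = 0.0148) was not called without WT MI-503 replicate 1 (0.83, adjusted p = 0.128) or WT DMSO replicate 2 (0.87, adjusted p = 0.099). Its difference of effects (log2 -1.83, SE 0.60, adjusted p = 0.0225) was not called without dKO MI-503 replicate 1 (-1.51, adjusted p = 0.0861), dKO DMSO replicate 2 (-1.16, adjusted p = 0.219), WT MI-503 replicate 1 (-1.61, adjusted p = 0.0785) or WT DMSO replicate 2 (-1.65, adjusted p = 0.0646). Ifit3 had 3 counts in 1 dKO DMSO library and 0 in the other 7, and was not tested; reads that fit both it and its near copy Ifit3b may have been dropped or split.

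Mx proteins are dynamin-like GTPases that trap viral particles. The reference strain C57BL/6J carries defective copies, and both genes are annotated there as transcribed pseudogenes, so their counts are RNA that may give no active protein. Mx1 (chromosome 16, 97447035 to 97462906) rose with MI-503 in both genotypes, more so in WT. Mx1 had 3.5 and 3.79 CPM in dKO MI-503, 0.576 and 0.687 CPM in dKO DMSO, 18.3 and 18.8 CPM in WT MI-503 and 0.733 and 0.992 CPM in WT DMSO. All MI-503 libraries lay above all DMSO libraries, and the WT MI-503 ones above those of dKO MI-503. It was 5.74-fold higher with MI-503 in dKO cells (log2 fold change 2.52, SE 0.16, edgeR adjusted p = 1.66e-08) and 21.5-fold higher in WT cells (log2 4.42, SE 0.14, adjusted p = 5.17e-12), and the effects differed (log2 -1.90, SE 0.24, adjusted p = 2.01e-05). In MI-503 it was 5.08-fold lower in dKO than in WT cells, and in DMSO no difference was called (log2 -0.44, SE 0.21, adjusted p = 0.0757).

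Mx2 had few counts, 5 and 2 in dKO MI-503, 8 and 13 in dKO DMSO, 10 and 12 in WT MI-503 and 1 and 1 in WT DMSO. The 21 counts of dKO DMSO against 2 of WT DMSO are a ratio of 9.32 (95% counting interval 2.28 to 82), and the 22 of WT MI-503 against those 2 a ratio of 10.5 (2.57 to 91.7), both called. The fitted difference of the MI-503 effects (log2 -4.71, SE 1.03, adjusted p = 0.00191) depends on the prior count. Its lower level in dKO than in WT cells in MI-503 (log2 -1.64, SE 0.62, adjusted p = 0.0398) was lost under 11 of 13 alternatives, among them each of the 8 libraries left out in turn (adjusted p between 0.0622 and 0.265).

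Guanylate-binding proteins are GTPases that attack the vacuoles of intracellular microbes. The 3 members lie in 1 cluster on chromosome 3 among close paralogs, so shared reads make their counts uncertain. Gbp2 was high in both dKO groups, with counts of 82 and 65 in dKO MI-503, 76 and 60 in dKO DMSO, 31 and 21 in WT MI-503 and 8 and 7 in WT DMSO. Every dKO library held more than every WT library. It was higher in dKO cells in DMSO (log2 fold change 2.99, SE 0.36, edgeR adjusted p = 5.03e-06) and in MI-503 (log2 1.49, SE 0.28, adjusted p = 0.000474), and rose with MI-503 in WT cells (log2 1.70, SE 0.41, adjusted p = 0.00226). The difference of the MI-503 effects (log2 -1.51, SE 0.49, adjusted p = 0.0207) was not called without dKO MI-503 replicate 2, dKO DMSO replicate 1, WT MI-503 replicate 1, WT DMSO replicate 1 or WT DMSO replicate 2 (log2 values from -1.60 to -1.27, adjusted p from 0.0513 to 0.0917). Gbp3 had the same order of genotypes, with counts of 10 and 32 in dKO MI-503, 30 and 28 in dKO DMSO, 4 and 2 in WT MI-503 and 4 and 3 in WT DMSO, and was higher in dKO cells in DMSO (log2 2.84, SE 0.66, adjusted p = 0.00171) and in MI-503 (log2 2.77, SE 0.71, adjusted p = 0.00447). The call in MI-503 ended without dKO MI-503 replicate 2 (1.63, adjusted p = 0.115). Gbp7 had 6 to 15 counts in the 8 libraries and no call in any comparison.

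RSAD2 (viperin) makes a nucleotide that stops viral RNA synthesis from the CTP its neighbour CMPK2 helps to supply, and the pair sit side by side on chromosome 12. Both were near the limit of detection. Rsad2 had counts of 3 and 13 in dKO MI-503, 18 and 16 in dKO DMSO, 7 and 1 in WT MI-503 and 8 and 5 in WT DMSO, and was called in none of the 5 comparisons. Cmpk2 had counts of 7 and 6 in dKO MI-503, 1 and 10 in dKO DMSO, 2 and 0 in WT MI-503 and 0 and 0 in WT DMSO and was not tested.

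ISG15 is a ubiquitin-like protein that is attached to others during the response, USP18 removes it and also blocks the type I receptor, and TRIM25 is a ligase that activates the sensor RIG-I. Isg15 (chromosome 4, 156199424 to 156200818), whose promoter stretch above holds 3 overlapping matches, was high in dKO DMSO alone. Isg15 had 0.104 and 0.227 CPM in dKO MI-503, 0.925 and 1.39 CPM in dKO DMSO, 0.132 and 0.117 CPM in WT MI-503 and 0.195 and 0.165 CPM in WT DMSO. Both dKO DMSO libraries lay above the other 6, and the other groups lay within 0.104 to 0.227 CPM. In DMSO it was 6.37-fold higher in dKO than in WT cells (log2 fold change 2.67, SE 0.38, edgeR adjusted p = 2.93e-05), and with MI-503 it was 7.03-fold lower in dKO cells (log2 -2.81, SE 0.39, adjusted p = 2.69e-05). No change was called in WT cells (log2 -0.53, SE 0.55, adjusted p = 0.411) or between the genotypes in MI-503 (log2 0.38, SE 0.55, adjusted p = 0.589). The difference of the effects (log2 -2.29, SE 0.70, adjusted p = 0.0162) was not called without dKO MI-503 replicate 1 (-1.82, adjusted p = 0.0556), dKO DMSO replicate 2 (-1.96, adjusted p = 0.0537) or WT MI-503 replicate 1 (-2.20, adjusted p = 0.0772).

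Usp18 (chromosome 6, 121245906 to 121270917), the remover of ISG15, had the opposite order of genotypes. Usp18 had 2.18 and 2.85 CPM in dKO MI-503, 4.69 and 4.74 CPM in dKO DMSO, 40.8 and 41.7 CPM in WT MI-503 and 30.3 and 29.2 CPM in WT DMSO. Every WT library lay far above every dKO library. It was 6.31-fold lower in dKO than in WT cells in DMSO (log2 fold change -2.66, SE 0.092, edgeR adjusted p = 1.64e-11) and 16.4-fold lower in MI-503 (log2 -4.04, SE 0.10, adjusted p = 9.27e-13). With MI-503 it fell in dKO cells (log2 -0.91, SE 0.11, adjusted p = 1.17e-05) and rose in WT cells (log2 0.47, SE 0.079, adjusted p = 0.0001), and the effects differed (log2 -1.38, SE 0.14, adjusted p = 2.54e-06). A long noncoding RNA gene overlaps it over 15743 bases, and the strand setting of the counting was not given.

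Trim25 had 87.1 and 96.6 CPM in dKO MI-503, 78.8 and 76.8 CPM in dKO DMSO, 98.4 and 104 CPM in WT MI-503 and 75.5 and 78.1 CPM in WT DMSO. The groups lay close together, with the MI-503 libraries above the DMSO ones. Trim25 rose with MI-503 in dKO cells (log2 fold change 0.24, SE 0.057, edgeR adjusted p = 0.00255) and in WT cells (log2 0.39, SE 0.057, adjusted p = 2.73e-05), the call in dKO cells ending without dKO MI-503 replicate 2 (0.16, adjusted p = 0.0517).

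PARP9 and DTX3L form an ADP-ribosylation and ubiquitin ligase pair that boosts interferon signalling, and PARP14 is another ADP-ribosyltransferase encoded next to them on chromosome 16. Parp9 and Dtx3l are neighbours that share 558 bases in the annotation, and their RNA moved alike. Parp9 had 10.2 and 10.5 CPM in dKO MI-503, 9.1 and 7.79 CPM in dKO DMSO, 11 and 11.5 CPM in WT MI-503 and 5.32 and 5.82 CPM in WT DMSO. Dtx3l had 10.1 and 11.7 CPM in dKO MI-503, 9.28 and 8.33 CPM in dKO DMSO, 10.9 and 11.8 CPM in WT MI-503 and 4.53 and 4.81 CPM in WT DMSO. For both genes WT DMSO was the low group, below all 6 other libraries. With MI-503 in WT cells Parp9 rose (log2 fold change 1.01, SE 0.10, edgeR adjusted p = 5.82e-07) and so did Dtx3l (log2 1.28, SE 0.11, adjusted p = 1.04e-07), and both were higher in dKO than in WT cells in DMSO (log2 fold change 0.60 for Parp9 and 0.91 for Dtx3l, both called). The effect of MI-503 was smaller in dKO cells for Parp9 (log2 -0.72, SE 0.14, adjusted p = 0.000729) and for Dtx3l (log2 -0.97, SE 0.15, adjusted p = 9.78e-05).

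The small rises of this pair with MI-503 in dKO cells were 0.29 for Parp9 (adjusted p = 0.0184) and 0.30 for Dtx3l (adjusted p = 0.0189). They lost their call without dKO MI-503 replicate 2 (0.27, adjusted p = 0.0711 for Parp9 and 0.19, adjusted p = 0.195 for Dtx3l) or dKO DMSO replicate 2 (0.18, adjusted p = 0.175 and 0.23, adjusted p = 0.133). In MI-503 neither gene was called between the genotypes.

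Parp14, their neighbour, went another way. Parp14 had 6.58 and 7.6 CPM in dKO MI-503, 12.1 and 10.5 CPM in dKO DMSO, 5.28 and 6.22 CPM in WT MI-503 and 5.97 and 5.92 CPM in WT DMSO. Both dKO DMSO libraries lay above the other 6. It was 1.9-fold higher in dKO than in WT cells in DMSO (log2 fold change 0.92, SE 0.11, edgeR adjusted p = 6.24e-06) and fell with MI-503 in dKO cells (log2 -0.67, SE 0.11, adjusted p = 0.000139), with no call in WT cells (log2 -0.052, SE 0.12, adjusted p = 0.717), and the difference was called (log2 -0.62, SE 0.16, adjusted p = 0.00627). In MI-503 it was higher in dKO cells (log2 0.30, SE 0.12, adjusted p = 0.0405), a call lost without dKO MI-503 replicate 2 (0.20, adjusted p = 0.25), without WT MI-503 replicate 1 (0.19, adjusted p = 0.309) and with the replicate block (adjusted p = 0.0509).

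Of the remaining members, BST2 (tetherin) holds budding virus on the cell surface. Bst2 had 5.996 and 5.38 CPM in dKO MI-503, 2.68 and 2.8 CPM in dKO DMSO, 7.34 and 7.27 CPM in WT MI-503 and 3.09 and 2.5 CPM in WT DMSO. The MI-503 libraries of both genotypes lay above all DMSO libraries. It rose with MI-503 in dKO cells (log2 fold change 1.05, SE 0.13, edgeR adjusted p = 7.23e-06) and in WT cells (log2 1.39, SE 0.13, adjusted p = 2.16e-07), and the difference was not called (log2 -0.33, SE 0.18, adjusted p = 0.147). In MI-503 it was lower in dKO than in WT cells (log2 -0.36, SE 0.11, adjusted p = 0.0165), but not without dKO MI-503 replicate 2 (-0.28, adjusted p = 0.112), WT MI-503 replicate 1 (-0.35, adjusted p = 0.0755) or WT MI-503 replicate 2 (-0.36, adjusted p = 0.0668).

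IFI44 is an interferon-induced antiviral protein, and XAF1 promotes cell death. Ifi44 had 0.208 and 0.292 CPM in dKO MI-503, 1.99 and 1.84 CPM in dKO DMSO, 0.38 and 0.351 CPM in WT MI-503 and 0.456 and 0.595 CPM in WT DMSO. Xaf1 had 0.623 and 1.36 CPM in dKO MI-503, 2.53 and 2.97 CPM in dKO DMSO, 0.541 and 0.568 CPM in WT MI-503 and 0.228 and 0.496 CPM in WT DMSO. For both genes the dKO DMSO libraries lay above the other 6. Ifi44 was 3.63-fold higher in dKO than in WT cells in DMSO (log2 fold change 1.86, SE 0.24, edgeR adjusted p = 1.12e-05) and 7.64-fold lower with MI-503 in dKO cells (log2 -2.93, SE 0.27, adjusted p = 6.28e-07), and the difference from WT cells was called (log2 -2.42, SE 0.42, adjusted p = 0.000328). Xaf1 was 7.59-fold higher in dKO cells in DMSO (log2 2.93, SE 0.35, adjusted p = 5.12e-06) and 2.8-fold lower with MI-503 in dKO cells (log2 -1.49, SE 0.29, adjusted p = 0.000656), again with a called difference of effects (log2 -2.10, SE 0.53, adjusted p = 0.00485). In MI-503 neither differed between the genotypes by the test, with log2 fold changes of -0.56 for Ifi44 (adjusted p = 0.191) and 0.83 for Xaf1 (adjusted p = 0.0711).

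IFI35 forms a complex with NMI, another interferon-induced protein. Ifi35 had 16.8 and 18.5 CPM in dKO MI-503, 19.7 and 19.8 CPM in dKO DMSO, 27.04 and 26.4 CPM in WT MI-503 and 20.01 and 18.8 CPM in WT DMSO. The WT MI-503 libraries lay above the other 6. With MI-503 it had no call in dKO cells (log2 fold change -0.16, SE 0.072, edgeR adjusted p = 0.0758) and rose in WT cells (log2 0.46, SE 0.071, adjusted p = 4.94e-05), and it was lower in dKO than in WT cells in MI-503 (log2 -0.60, SE 0.071, adjusted p = 8.23e-06), with a called difference of effects (log2 -0.62, SE 0.10, adjusted p = 0.000186). Ifi27, encoding a mitochondrial membrane protein, shares its whole region with Ifi27l2a in the annotation, and its counts were 21 and 17 in dKO MI-503, 49 and 59 in dKO DMSO, 57 and 45 in WT MI-503 and 50 and 60 in WT DMSO. It was low in dKO MI-503 alone, where it fell with MI-503 (log2 -1.41, SE 0.29, adjusted p = 0.000799) and was lower than in WT MI-503 (log2 -1.43, SE 0.29, adjusted p = 0.000816). Its difference of effects (log2 -1.23, SE 0.38, adjusted p = 0.0164) was not called without dKO MI-503 replicate 2 (-1.14, adjusted p = 0.0586), dKO DMSO replicate 2 (-1.15, adjusted p = 0.0517) or WT MI-503 replicate 1 (-1.15, adjusted p = 0.059). Rtp4, a receptor chaperone gene, had 0 to 7 counts and was not tested.

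**Figure D5:**
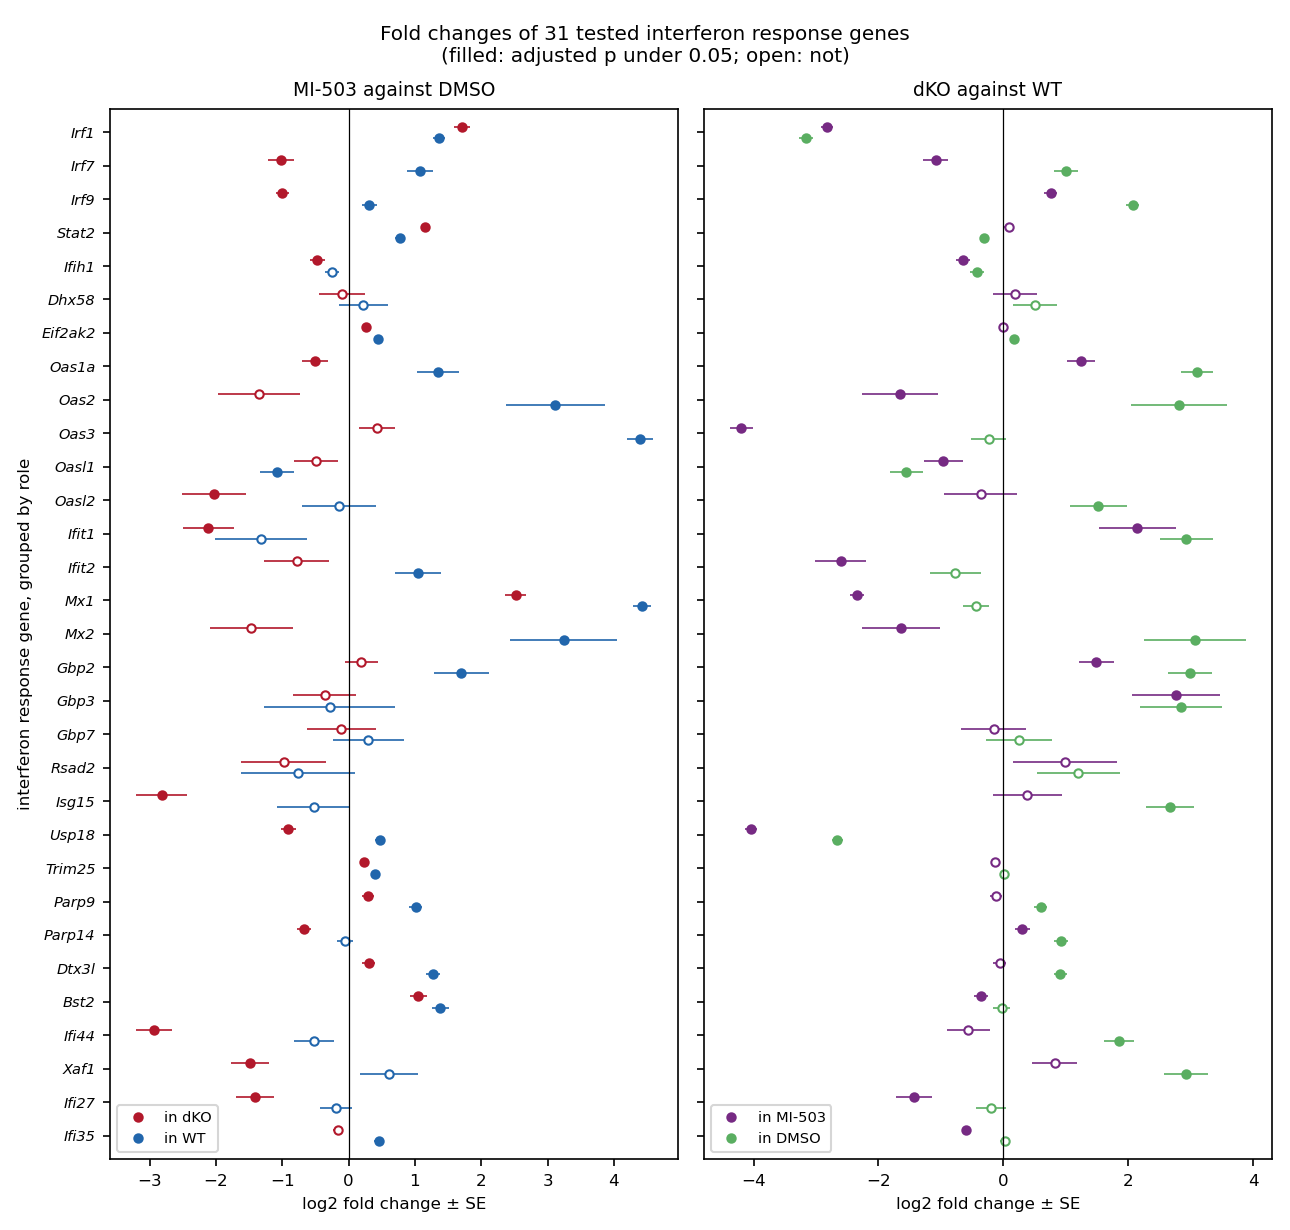
Log2 fold changes ± SE of the 31 tested members, on the left for MI-503 against DMSO in dKO (red) and WT (blue) and on the right for dKO against WT in MI-503 (purple) and DMSO (green); filled points passed the edgeR test. Red and blue points lie on opposite sides of 0 with both filled for Irf7, Irf9, Oas1a and Usp18, and blue lies far to the right of red for Oas3.

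The members were also counted by their level. Of the 16 with a mean of at least 1 CPM over the 8 libraries, 8 rose and 6 fell with MI-503 in dKO cells, where 34.5% and 33.3% of the 12258 genes at that level did so, and 13 rose and 0 fell in WT cells (39.7% and 40.7% of genes). Of the 15 under 1 CPM, 0 rose and 6 fell with MI-503 in dKO cells, where 14.6% and 8.75% of the 4663 genes at that level did so, and 5 rose and 1 fell in WT cells (23.4% and 15.5%). In the higher set the effect of MI-503 was higher in dKO cells for 1 member and lower for 10 (31.8% and 28.0% of genes), and in the lower set for 0 and 8 (6.22% and 6.35%). Between the genotypes in DMSO, 7 members of the higher set were higher and 4 lower in dKO cells (34.7% and 42.5% of genes), with a median log2 fold change of 0.022, and in the lower set 9 and 1 (16.3% and 18.2%), with a median of 1.86. In MI-503 the counts were 2 and 8 in the higher set (31.5% and 32.6%) and 4 and 5 in the lower (13.6% and 18.0%). Low counts widen the error, and 9 of the tested members had a group with a mean under 10 counts.

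The other genes of the pathway, 141 in 7 lists of which 99 were tested, are given by role. The interferon genes themselves were at the limit of detection. Of 20 type I, II and III interferon genes, 15 had 0 counts in all 8 libraries, among them Ifnb1, Ifng and the 12 named Ifna genes listed with a number. The other 5 summed to 13 counts in dKO MI-503, 11 in dKO DMSO, 0 in WT MI-503 and 2 in WT DMSO, most of them from Ifne, the interferon gene of epithelial surfaces, with at most 6 counts in a library.

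Of the 6 interferon receptor genes, 0 were higher and 4 lower in dKO than in WT cells in DMSO, and 0 and 3 in MI-503. Of all genes tested, 35.8% were called lower in DMSO and 28.5% in MI-503. Ifngr1 averaged 29.6 ± 0.981 CPM in dKO MI-503, 29.01 ± 0.548 CPM in dKO DMSO, 98.6 ± 1.94 CPM in WT MI-503 and 102 ± 0.231 CPM in WT DMSO (SD, n = 2 each). This chain of the interferon gamma receptor was lower in dKO than in WT cells in DMSO (log2 fold change -1.82, SE 0.053, edgeR adjusted p = 3.19e-12) and in MI-503 (log2 -1.73, SE 0.053, adjusted p = 6.16e-12), and MI-503 changed it by no called amount in either genotype. Its partner Ifngr2 was lower too (log2 -0.58 in DMSO and -0.56 in MI-503, both called). Ifnlr1 averaged 8.87 ± 0.596 CPM in dKO MI-503, 5.04 ± 0.38 CPM in dKO DMSO, 27.5 ± 1.26 CPM in WT MI-503 and 10.3 ± 0.362 CPM in WT DMSO. This chain of the type III receptor rose with MI-503 in dKO cells (log2 0.81, SE 0.094, adjusted p = 5.4e-06) and in WT cells (log2 1.41, SE 0.084, adjusted p = 2.71e-09) and was lower in dKO cells in both treatments. Ifnar1, of the type I receptor, fell slightly with MI-503 in dKO cells (log2 -0.16) and in WT cells (log2 -0.21).

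In the 5 genes of JAK-STAT signalling, MI-503 gave 1 higher and 4 lower in dKO cells, and 1 higher and 2 lower in WT cells. The shares of all genes called higher and lower were 29.1% and 26.5% in dKO cells, and 35.2% and 33.7% in WT cells. Tyk2 averaged 33.6 ± 1.62 CPM in dKO MI-503, 22.7 ± 1.62 CPM in dKO DMSO, 31.9 ± 0.918 CPM in WT MI-503 and 8.53 ± 1.01 CPM in WT DMSO. WT DMSO was the low group, and Tyk2 rose with MI-503 in dKO cells (log2 fold change 0.57, SE 0.081, edgeR adjusted p = 3.84e-05) and in WT cells (log2 1.90, SE 0.088, adjusted p = 2.08e-10).

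Of 14 tested sensor and adaptor genes, 3 were higher and 9 lower in dKO than in WT cells in DMSO, and 2 higher and 8 lower in MI-503. Over all genes the shares called higher and lower were 29.6% and 35.8% in DMSO, and 26.6% and 28.5% in MI-503. Tmem173 averaged 0.755 ± 0.124 CPM in dKO MI-503, 0.472 ± 0.0666 CPM in dKO DMSO, 21.9 ± 0.079 CPM in WT MI-503 and 3.52 ± 0.12 CPM in WT DMSO. Tmem173 encodes STING, the adaptor of cytosolic DNA sensing, and was lower in dKO than in WT cells in DMSO (log2 fold change -2.89, SE 0.16, edgeR adjusted p = 2.01e-09) and in MI-503 (log2 -4.86, SE 0.13, adjusted p = 1.61e-12). With MI-503 it rose in dKO cells (log2 0.67, SE 0.21, adjusted p = 0.0147) and in WT cells (log2 2.64, SE 0.10, adjusted p = 4.05e-11). Cgas averaged 13.8 ± 0.827 CPM in dKO MI-503, 16.3 ± 0.0974 CPM in dKO DMSO, 3.64 ± 0.517 CPM in WT MI-503 and 9.45 ± 0.383 CPM in WT DMSO. Cgas, the DNA sensor upstream of STING, had the reverse order of genotypes, being higher in dKO than in WT cells in DMSO (log2 0.78, SE 0.093, adjusted p = 4.87e-06) and in MI-503 (log2 1.92, SE 0.10, adjusted p = 2.32e-09). Tlr3, the endosomal double-stranded RNA receptor gene, was lower in dKO cells in DMSO (log2 -1.82) and in MI-503 (log2 -2.67), and Ikbke, which encodes a kinase of IRF3 and IRF7, was lower in DMSO (log2 -1.98), all called.

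In the other IRF genes, 4 of 6 were tested. Irf5, an activator of inflammatory genes, was lower in dKO cells in DMSO (log2 -1.88, SE 0.13, adjusted p = 1.95e-08) and in MI-503 (log2 -2.34, SE 0.12, adjusted p = 1.03e-09), the order also seen for Irf1.

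Of 72 further interferon-stimulated genes, 55 were tested. With MI-503, 24 rose and 12 fell in dKO cells (43.6% and 21.8%, and 29.1% and 26.5% of all genes; median 0.22), and 34 rose and 7 fell in WT cells (61.8% and 12.7%, and 35.2% and 33.7% of all genes; median 0.70). Between the genotypes, 20 were higher and 24 lower in dKO cells in DMSO (36.4% and 43.6%, and 29.6% and 35.8% of all genes; median -0.18), and 11 higher and 30 lower in MI-503 (26.6% and 28.5% of all genes; median -0.53). The effect of MI-503 was lower in dKO cells for 18 and higher for 5 (32.7% and 9.09%, and 22.0% and 24.8% of all genes; median -0.28). The medians of all genes tested in the same 5 comparisons were 0.031, 0.031, -0.052, 0.007 and 0.018. Lgals9, which encodes a galectin, rose with MI-503 in dKO cells (log2 fold change 1.05, SE 0.20, edgeR adjusted p = 0.000495) and more in WT cells (log2 5.79, SE 0.24, adjusted p = 6.13e-11), with a called difference of effects (log2 -4.73). Lgals3bp, a secreted binding partner of galectin-3, was lower in dKO than in WT cells in DMSO (log2 -2.04, SE 0.087, adjusted p = 1.4e-10) and in MI-503 (log2 -3.78, SE 0.083, adjusted p = 3.02e-13). Pml, which encodes the scaffold of antiviral nuclear bodies, rose with MI-503 in dKO cells (log2 1.10) and in WT cells (log2 0.81), both called.

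Of 15 tested negative regulators, 8 rose and 2 fell with MI-503 in dKO cells, and 11 rose and 2 fell in WT cells. In dKO cells 53.3% rose and 13.3% fell, against 29.1% and 26.5% of all genes, and in WT cells 73.3% rose and 13.3% fell, against 35.2% and 33.7%. Socs3, a feedback inhibitor of JAK kinases, rose in dKO cells (log2 fold change 1.55, SE 0.10, edgeR adjusted p = 1.17e-08) and in WT cells (log2 0.89, SE 0.089, adjusted p = 6.56e-07). Ptpn1, encoding a phosphatase of JAK2 and TYK2, rose in dKO cells (log2 0.80, SE 0.056, adjusted p = 3.62e-08) and in WT cells (log2 1.17, SE 0.057, adjusted p = 3.38e-10), and Ptpn2, a phosphatase of JAK1, fell in dKO cells (log2 -1.03, SE 0.054, adjusted p = 2.37e-09) and in WT cells (log2 -1.60, SE 0.055, adjusted p = 1.09e-11).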

How the data were processed

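The values are whole-number counts of reads for each Ensembl gene, deposited by the authors without scaling; per the labels' protocols the libraries were made from polyadenylated RNA. Per the submitters' processing notes, STAR and the builds GRCm38 and mm10 were used in the series; the way reads were counted, with its annotation and strand setting, was not given in the sources used here. The other 32 of the 40 samples were not analysed here, and 1 row without a gene identifier was left out. The 8 libraries were grouped by their labels.

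In R 4.3.3, edgeR 4.0.16 (with limma 3.58.1) kept 16921 genes with filterByExpr by group (minimum count 10, minimum total 15), scaled libraries by TMM factors (0.892 to 1.06), fitted 1 mean per group over the 8 libraries (4 residual degrees of freedom) and gave the quasi-likelihood F test with Benjamini-Hochberg adjustment over all genes at 0.05. Every adjusted p in the text is from this edgeR test unless another tool is named. The biological coefficient of variation was 5.14%. SE is the log2 fold change divided by the square root of F, and the prior count was 0.125, so fold changes of genes near 0 counts are understated. A test of a single gene over 2 against 2 libraries cannot go below an exact p of 0.33. Promoters were searched in Python 3.11.15.

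The members and all gene lists were chosen with earlier results of these data known, and the list of endoplasmic reticulum chaperones was added after values were seen. Members are given by library where they were called with a mean of at least 1 CPM (up to 12 per comparison), together with Irf1, Irf7, Irf9, Stat2 and Isg15; Oas1a, Ifit1 and Ifi44 were added after their values were seen, as were the counts of members under that level. Of the other lists, at most the 3 called genes with the smallest adjusted p per list and comparison and a mean of at least 1 CPM are named; some results under that rule are not reported here. Positions come from RefSeq on GRCm38.p6, where all 35 members were found by symbol and 14 overlap another gene.

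Tested on simulated data for MI-503 against DMSO in WT (16376 genes), the fit recovered 82.1% of genes changed 1.5-fold, 95.5% of those changed 2-fold and 100% of those changed 4-fold, with 8 false calls. The changed genes were drawn only from genes above a floor on the mean count, so these rates do not cover members with few counts. All other genes were set to no change, which differs from the data, where most genes were called. Replicates of a group differed by more than sampling noise (chi-square over degrees of freedom 5.47 to 14.3). The alternatives were each library left out in turn and 7 other settings: RLE size factors, library size only, no filter, a stricter filter (1 CPM in every library of a group and on average), the groups compared alone, a replicate block and DESeq2 1.42.0.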

Additional observations from a re-analysis of the deposited data

Results flagged for a closer look

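For 19 of the 31 tested members the effect of MI-503 (log2 fold change against DMSO) differed between dKO and WT cells by edgeR's test of that difference, given here as dKO minus WT. It was lower in dKO cells for 18 of them. Of all genes tested, 46.8% were called in this comparison and 22.0% were called lower. Of the 19 calls, 14 held under all alternatives run, and those of Stat2, Ifit2, Gbp2, Isg15 and Ifi27 were lost under at least 1 of them. Among the antiviral effectors it was -3.96 for Oas3, -1.90 for Mx1, -1.86 for Oas1a, -1.83 for Ifit2, -1.51 for Gbp2, -4.46 for Oas2 and -4.71 for Mx2, and the last pair had 2 to 5 counts in WT DMSO in all, so that the fitted size depends on the prior count. Among the regulators it was -2.10 for Irf7, -1.31 for Irf9 and -1.38 for Usp18, and it was called above 0 for Stat2 alone, at 0.39. Among the rest it was -2.42 for Ifi44, -2.29 for Isg15, -2.10 for Xaf1, -1.23 for Ifi27, -0.97 for Dtx3l, -0.72 for Parp9, -0.62 for Ifi35 and -0.62 for Parp14. WT DMSO, whose libraries stood apart in chaperone RNA, enters each of these differences, and its part in them was not tested. With 2 libraries a group, single stray libraries could not be looked for.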

How the results depend on the processing

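Under each of the 15 alternatives that gave a value, more members were higher than lower between dKO and WT cells in DMSO and with MI-503 in WT cells, and more were lower than higher between dKO and WT cells in MI-503 and for the difference of the MI-503 effects; with MI-503 in dKO cells more fell than rose except under the stricter filter (8 rose and 7 fell). With the stricter filter, which keeps 17 members, 8 were higher between dKO and WT cells in DMSO (16 in the main analysis), 0 fell with MI-503 in WT cells (1), 7 fell with MI-503 in dKO cells (12), 11 had a lower MI-503 effect in dKO cells (18), and 3 were higher and 8 lower between dKO and WT cells in MI-503 (6 and 13), while 8 rose with MI-503 in dKO cells as before; fewer genes tested is the construction of that setting. Scaled by library size only, 3 members were lower between dKO and WT cells in DMSO (5) and 0 had a higher MI-503 effect in dKO cells (1); it moved the median of all genes to 0.17 (dKO against WT in DMSO), 0.21 (MI-503 in WT) and -0.14 (the difference of effects). Without a filter, 2 fell with MI-503 in WT cells and 0 had a higher MI-503 effect in dKO cells, and with the groups compared alone 3 fell with MI-503 in WT cells; the cause was not tested. Leaving out 1 library gave 1 to 2 members that fell with MI-503 in WT cells, 5 to 9 that rose and 11 to 14 that fell with MI-503 in dKO cells, 1 to 2 with a higher and 14 to 19 with a lower MI-503 effect in dKO cells, and 3 to 7 higher and 9 to 12 lower between dKO and WT cells in MI-503. The lowest of the rises in dKO cells and of the higher levels in MI-503 came without dKO MI-503 replicate 2. Of the members' calls, 18 of 21 (genotypes in DMSO), 17 of 19 (MI-503 in WT), 16 of 20 (MI-503 in dKO), 15 of 19 (difference of effects) and 12 of 19 (genotypes in MI-503) held with each library left out. Correlations of same-numbered deviations ran from -0.09 to 0.06, which cannot show whether same-numbered libraries were handled together. With the replicate block 151 of 155 member results kept direction and call, 3 lost the call and 1 gained it. The 3 were Oas1a with MI-503 in dKO cells (-0.50), and Mx2 (-1.63) and Parp14 (0.30) between the genotypes in MI-503. DESeq2 kept 139 of 154 and RLE size factors 152 of 155. With DESeq2 13 results lost the call. Between the genotypes these were Oasl2 in DMSO, and Oas2, Oasl1, Mx2, Parp14 and Bst2 in MI-503. With MI-503 they were Ifit2 in WT cells, and Oas1a, Parp9 and Dtx3l in dKO cells. For the difference of effects they were Ifit2, Gbp2 and Ifi27. No called result changed sign under an alternative. Depth limits the 15 tested members under 1 CPM, of which 9 had a group with a mean under 10 counts.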
